A study of Mus musculus with 4 samples.

Results

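The genes examined were 9 complement components and regulators, taken by name from the table of counts per gene, out of 54532 genes listed there. They were the components C3, C4b, C1ra, C1s1 and Cfb, the soluble regulator Serping1 and the membrane regulators Cd55, Cd59a and Cr1l. RNA-sequencing had been performed on a conditionally immortalized mouse podocyte line, labelled MPC5, as 4 libraries. Of these, 2 came from cells exposed to IL-12 at 400 ng/ml over 6 h (IL-12 group) and 2 from cells given saline (control group). The line proliferates with interferon-γ in its medium and differentiates after its withdrawal, and all 4 libraries share this culture history. Nothing states whether replicate libraries were grown as separate cultures, so the p-values measure the spread between these libraries, which may be technical.

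Complement is a cascade of proteases and binding proteins. The classical pathway starts when C1q activates the proteases C1r and C1s, which cleave C4 and C2, and the alternative pathway uses factor B. Both form enzymes that cleave C3, and the terminal components then build the membrane attack complex. C1 inhibitor (Serping1) blocks C1r and C1s, while DAF (Cd55) and the rodent regulator Crry (Cr1l) act on the C3-cleaving enzymes at the cell surface, and Cd59a blocks the attack complex. Podocytes face the plasma filtrate and carry such surface regulators.

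Among these 9 genes the membrane regulators held most of the counts, and the components were scarce. Cd59a and Cr1l held 54.6% and 33.0% of all counts on the 9 genes. With IL-12, Cd59a fell by 14.1% and Cr1l rose by 19.2%, and both changes stood close to the limit of the test. The classical components C1ra and C1s1 and the central component C3 had lower means with IL-12, but none of them passed. C4b, Cfb, Serping1 and Cd55 did not pass the filter on low counts.

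The podocyte label was met by these libraries only in part. Of 10 podocyte markers, 6 passed the filter on low counts, among them Actn4, Kirrel, Synpo, Cd2ap and Podxl, but over the 4 libraries Nphs1 (nephrin) had 1 count, Wt1 had 32 and Tcf21 had 0. Total counts were between 18355379 and 20098012 per library. Libraries of 1 group differed by more than sampling noise (chi-square per gene 2.13 and 2.42), and each was counted as a replicate.

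The promoter sequences of both genes that passed the test are shown for reference, since cytokine signals reach genes through such regions. They are the 250 bases before the RefSeq start in GRCm38.p6, at chr2:104095551-104095800 on the plus strand for Cd59a and chr1:195131571-195131820 on the minus strand for Cr1l. Capitals mark a match to a motif searched on both strands.
Cd59a: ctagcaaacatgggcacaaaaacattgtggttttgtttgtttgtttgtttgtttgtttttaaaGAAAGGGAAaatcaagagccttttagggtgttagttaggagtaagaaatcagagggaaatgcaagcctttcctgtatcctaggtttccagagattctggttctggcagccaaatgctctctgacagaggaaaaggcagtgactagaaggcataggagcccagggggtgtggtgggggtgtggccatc
Cr1l: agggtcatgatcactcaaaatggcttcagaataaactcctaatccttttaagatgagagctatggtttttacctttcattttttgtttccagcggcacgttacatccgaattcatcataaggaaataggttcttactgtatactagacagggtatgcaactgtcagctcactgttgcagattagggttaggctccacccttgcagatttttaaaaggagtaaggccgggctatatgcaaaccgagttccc

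The motifs were TTCNNNGAA (bound by STAT factors), GAAANNGAA (interferon-stimulated element) and GGANTTTCC (NF-κB). These occur in 7.02%, 7.13% and 1.07% of the 32851 promoters of the same length. The Cd59a promoter held 1 match, to the interferon-stimulated element, which began 187 bases before the start. No match was found in the window of Cr1l, nor in those of C3, C1ra, C1s1 and Cd55, the other members with an entry. A match is a run of letters and was not shown to be a binding site. The Cd59a window held no CG pair and the Cr1l window held 5, against a median of 6 over all promoters.

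Levels were compared between genes as FPKM, a count scaled to library size and gene length. Cd59a was the highest member at 18.4 FPKM over the 4 libraries, above 76.8% of the 14095 genes tested. Cr1l followed at 1.94 FPKM, although its count was high, because its listed length of 10349 bases is far over the 1811 bases of Cd59a. C1ra came next at 1.49 FPKM, and the ranges of Cr1l (1.76 to 2.23) and C1ra (1.04 to 1.82) overlapped. C1s1 had 0.397 FPKM and C3 had 0.190 FPKM, above 7.83% and 2.96% of the genes tested. C4b and Cfb were both at 0.095 FPKM, Serping1 at 0.052 and Cd55 at 0.0026. The plot by library uses CPM (counts scaled to library size, not to length), the scale of the test. There, unlike in FPKM, the ranges of Cr1l (18.2 to 23.1) and C1ra (3.10 to 5.44) did not overlap.

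**Figure D1:**
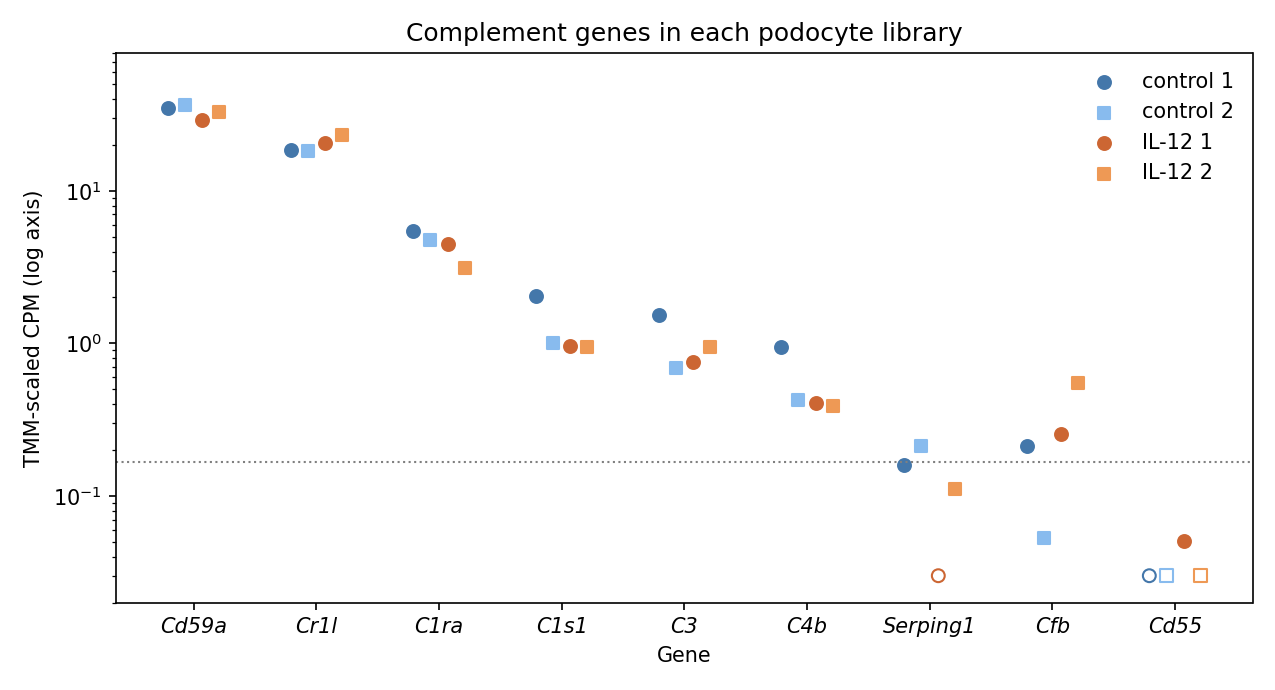
CPM of the 9 genes (log axis) in the control libraries (blue) and the IL-12 libraries (orange), with circles for replicate 1 and squares for replicate 2, open symbols for 0 counts and a dotted line at the highest level of 3 counts in any library. Cd59a and Cr1l lie between 18.2 and 36.5 CPM in every library, while control 1 stands above the other libraries for C1s1, C3 and C4b.

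In these cells 5 members passed the filter, C3, C1ra, C1s1, Cd59a and Cr1l. In the quasi-likelihood fit of edgeR, with p-values adjusted over 14095 genes by Benjamini-Hochberg, 1 member was called higher with IL-12 and 1 lower at an adjusted p below 0.05. Over all genes tested, 16.1% were called higher and 14.4% lower. With scaling by total counts only, 40.5% of all calls were higher, against 52.8% here. None of the 5 tested members was called at over 2-fold, beside 1.61% of all genes tested. At an unadjusted p below 0.05, met by 3 members with edgeR and limma voom and by 0 with DESeq2, 0 were over 2-fold. In 4 of the 5 tested members the groups did not overlap, which also held for 62.9% of all genes tested. The median log2 fold change of the 5 was -0.39, which is the value of C3 (SE 0.43), and that of all genes tested was -0.0022.

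The membrane regulator Cd59a is the mouse form of the inhibitor that stops the attack complex from closing. It (ENSMUSG00000032679) lies on chromosome 2 of GRCm38 from 104095801 to 104115354. The control libraries had 35.1 and 36.5 CPM (665 and 688 counts) and the IL-12 libraries 28.9 and 32.6 CPM (572 and 590 counts). Both IL-12 libraries were below both control libraries, and they differed more from each other than the control libraries did. Without IL-12 the mean was 35.8 ± 0.955 CPM (SD, n = 2), and with it the mean was 30.8 ± 2.62 CPM (SD, n = 2). This is a log2 fold change of -0.22 (SE 0.08, 95% interval -0.38 to -0.06), which passed at an adjusted p of 0.0331 by edgeR. The call was lost with the DESeq2 Wald test (adjusted p = 0.165), without a filter (0.108), without control replicate 2 (0.119) and without IL-12 replicate 1 (0.331, log2 fold change -0.13). Over 14 alternatives its adjusted p from the fits across all genes was between 0.0127 and 0.331.

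Cr1l encodes Crry, which acts on the C3-cleaving enzymes at the surface of rodent cells. The gene (ENSMUSG00000016481) lies on chromosome 1 from 195097382 to 195131586. Its level was 18.4 and 18.2 CPM (349 and 344 counts) in the control libraries and 20.6 and 23.1 CPM (408 and 418 counts) in the IL-12 libraries. The groups did not overlap, and the control libraries were nearly equal. Means were 18.3 ± 0.138 CPM (SD, n = 2) for control and 21.9 ± 1.75 CPM (SD, n = 2) for IL-12. The resulting log2 fold change of 0.25 (SE 0.09, 95% interval 0.06 to 0.45) passed at an adjusted p of 0.0473 by edgeR. This call was kept in 5 of 14 alternatives, among them the sum of copies, which left the counts of Cr1l unchanged. The log2 fold change was 0.17 without IL-12 replicate 2. Without control replicate 1, control replicate 2 or IL-12 replicate 1 the adjusted p was 0.101, 0.118 and 0.0611. Over all 14 it ranged from 0.037 to 0.293.

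Markers of other cells were checked, since macrophages and hepatocytes make several complement components. Of 10 leukocyte markers, 6 had at most 10 counts over the 4 libraries, among them Adgre1, Cd3e and Tyrobp at 0. The summed level of the list was 26.6 to 29.3 CPM in the control and 16.2 to 20.6 CPM in the IL-12 libraries. Most of it was Csf1r, which fell from 21.4 and 23.0 CPM to 11.1 and 13.0 CPM (log2 fold change -0.88, adjusted p = 3.41e-06 by edgeR). The other marker tested, Cd68, had 4.70 and 5.93 CPM against 4.70 and 6.52 CPM (log2 fold change 0.07, adjusted p = 0.823), and Ptprc had 3 and 1 counts against 6 and 12. Of 6 hepatocyte markers, 5 were at 0, and 1 count was found over the whole list. Of 6 endothelial markers none passed the filter, with sums of 0.265 to 0.792 and 0.719 to 0.809 CPM. The tubule list (634.7 to 660.5 and 518.8 to 560.1 CPM) was mostly Lrp2, and the list for mesangium and fibroblasts (52.4 to 54.5 and 58.6 to 66.8 CPM) mostly Pdgfrb. The part of these cells in the differences of Cd59a and Cr1l was not tested. In such bulk samples fewer cells of a type and less RNA per cell cannot be told apart.

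The other membrane member, Cd55 (DAF, ENSMUSG00000026399, chromosome 1 from 130439027 to 130462744), had 1 count in IL-12 replicate 1 and 0 in the other libraries. Its copy Cd55b had 0 in all. At this depth 3 counts correspond to 0.152 to 0.166 CPM, which covers counting error only, so a level of Cd55 below that limit could not be seen. Cd46, another regulator of C3b, had 19 to 21 counts in the control and 17 to 20 in the IL-12 libraries. Cd46 overlaps Gm37132 (15 counts) on the same strand, and A330023F24Rik (10 counts) and Gm37366 (9 counts) on the opposite strand. Of the membrane members, Cd59a and Cr1l had counts in every library and Cd55 did not.

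The soluble inhibitor Serping1 (ENSMUSG00000023224, chromosome 2 from 84765387 to 84775444) had 3 and 4 counts without IL-12 and 0 and 2 with it. Most of these values are at or under the 3-count limit, so no difference was detectable at this depth. Per length, in FPKM, the genes of its targets were more abundant than itself. C1ra and C1s1, which encode the mouse C1r and C1s proteases, neighbour each other on chromosome 6, from 124512405 to 124523443 and from 124530345 to 124542359.

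C1ra (ENSMUSG00000055172) had 5.44 and 4.77 CPM (103 and 90 counts) in the control libraries and 4.45 and 3.10 CPM (88 and 56 counts) in the IL-12 libraries. The groups did not overlap, but the IL-12 libraries lay farther apart from each other than the nearest libraries of the 2 groups. Its log2 fold change of -0.43 (SE 0.20, 95% interval -0.85 to -0.01) did not pass, with adjusted p = 0.121 by edgeR. C1s1 (ENSMUSG00000038521) had 2.06 and 1.01 CPM (39 and 19 counts) against 0.960 and 0.940 CPM (19 and 17 counts). Its difference rests on control replicate 1, since control replicate 2 was level with the IL-12 libraries. Over all 4 libraries the log2 fold change was -0.69 (SE 0.39, 95% interval -1.51 to 0.14, adjusted p = 0.211 by edgeR), and without control replicate 1 it was -0.08.

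C3 (ENSMUSG00000024164, chromosome 17 from 57203970 to 57228136) encodes the protein on which all pathways converge. It had 1.53 and 0.689 CPM (29 and 13 counts) in the control libraries and 0.758 and 0.940 CPM (15 and 17 counts) in the IL-12 libraries. The IL-12 libraries lay between the control libraries. Its log2 fold change was -0.39 (SE 0.43, 95% interval -1.30 to 0.52, adjusted p = 0.556 by edgeR), and it turned to 0.30 without control replicate 1.

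Of the genes in the class III region of the major histocompatibility complex on chromosome 17, C4b (ENSMUSG00000073418, 34728380 to 34743882) encodes the C4 protein cleaved by C1s. It had 18 and 8 counts without IL-12 and 8 and 7 with it. As for C1s1 and C3, control replicate 1 stood above the other 3 libraries. Cfb (ENSMUSG00000090231, 34856374 to 34862518), the protease of the alternative pathway, had 4 and 1 counts without IL-12 and 5 and 10 with it. The highest value was in IL-12 replicate 2, and the groups differed by 1 count at their nearest. In a fit with no filter on 24525 genes, the adjusted p was 0.494 for C4b, 0.369 for Cfb, 0.573 for Serping1 and 0.66 for Cd55 by edgeR. The log2 fold changes of that fit were -0.79 (SE 0.54), 1.55 (SE 0.86), -1.68 (SE 1.32) and 2.32 (SE 2.87), in the same order.

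Replicates of the control group differed for these low genes. C3 was 2.22-fold and C1s1 2.05-fold higher in control replicate 1 than in control replicate 2, ratios reached by 0.717% and 1.07% of all genes tested. These shares are over genes of all levels, and C3 and C1s1 lie above only 2.96% and 7.83% of the genes tested in FPKM. Ratios of low counts vary more by sampling, and genes of like count were not compared. Among other genes of the pathway, Itgb2 was 1.58-fold, Cfp (properdin) 1.53-fold, C2 1.48-fold and C8g 1.31-fold higher in control replicate 1. Cd59a (0.963-fold) and Cr1l (1.01-fold) were nearly level. Of the 16 pathway genes tested, 11 (68.8%) were higher in control replicate 1 by any margin, against 49.5% of all genes tested. That count includes near ties, such as Masp1 and Cr1l at 1.01-fold and C4bp at 1.02-fold. Ratios under 1 were those of C4a (0.854), C1rb (0.944), Clu (0.948), Cd59a and Susd4 (both 0.963). Over all genes tested the median ratio of control replicate 1 to control replicate 2 was 0.999. Those libraries had 20540 and 20659 genes with a count and 0.114% and 0.112% of counts on genes outside the test. These figures do not show how genes of low count compared between them. The IL-12 libraries had ratios of 0.807 for C3 and 1.02 for C1s1.

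**Figure D2:**
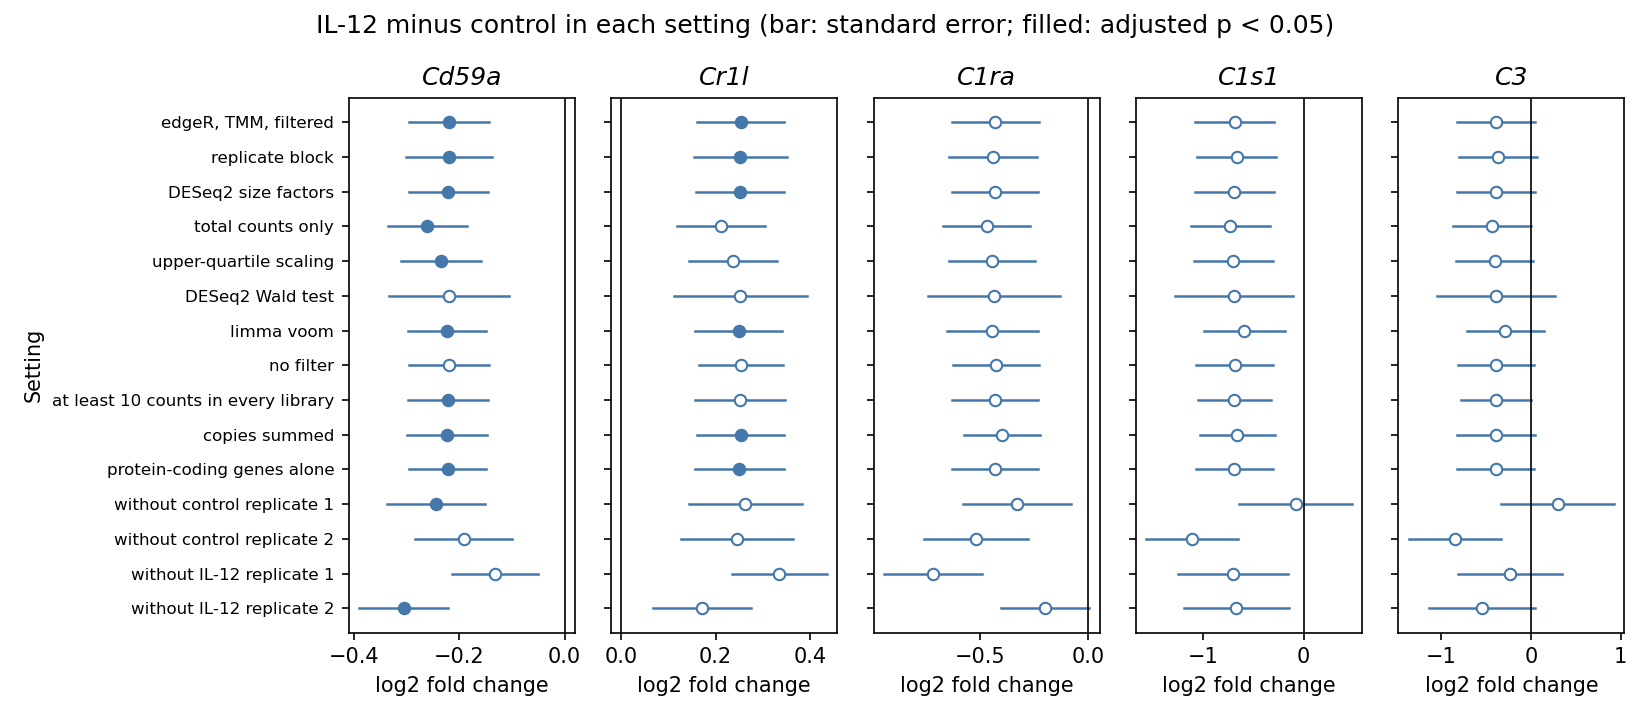
Log2 fold change (IL-12 minus control) of the 5 tested genes in 15 settings, with bars for the standard error and filled points for an adjusted p below 0.05. Cd59a stays below 0 and Cr1l above 0 in every setting, while C3 passes 0 in 1 setting, without control replicate 1, where C1s1 also comes to -0.08.

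Several members have a related copy in the mouse genome, and reads of a shared stretch could have been counted on either. Of the 50-base windows of the longest GENCODE transcript, 48.0% for C1ra were also in C1rb, 35.2% for C4b in C4a, 24.3% for C1s1 in C1s2 and 10.7% for Cd55 in Cd55b. For Cd59a only 4.0% were in Cd59b. The counts of C1ra and C4b are therefore uncertain, and those of Cd59a much less so. C1rb had 18 and 19 counts in the control and 15 and 16 in the IL-12 libraries. C4a, listed as a processed transcript, had 36 and 42 against 42 and 32, which was more than C4b. Cd59b had 6 counts in all and C1s2 had 4. With these members and their copies summed before the fit, Cd59a was still called, with a log2 fold change of -0.22. Cr1l had no copy in this sum, so its counts were unchanged and its call there (0.25) is no further check. No gene that overlaps a member had any count.

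The rest of the pathway was examined from lists of 55 complement genes that include the members. Of these, 22 had no count in any library, 16 passed the filter, 2 were called higher and 3 lower, and 11 were not called. These 5 of 16 stand beside the 16.1% higher and 14.4% lower of all genes tested, a similar share. None was over 2-fold. C1qa, C1qb and C1qc, which form the C1q that starts the classical pathway, had 0 counts in every library, although C1ra and C1s1 had counts in all of them. Of 7 terminal genes, C6, C7, C8a, C8b, C9 and Hc (C5) were at 0 and C8g alone passed the filter, with a log2 fold change of -0.19 (adjusted p = 0.666 by edgeR). C8g overlaps Fbxw5 (3976 counts) on the opposite strand. Of 8 receptor genes Itgb2, a chain of the C3 fragment receptors, was the 1 that passed, at -0.10 (adjusted p = 0.897). Of 10 classical pathway genes, 5 passed the filter and 0 were called by edgeR, DESeq2 or limma voom, with C1ra the 1 at an unadjusted p below 0.05 in edgeR (0.0467).

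The most abundant other genes were Clu and Masp1. Clu encodes clusterin, which binds terminal complexes, and it rose from 66.0 and 69.7 CPM to 84.2 and 74.2 CPM. This was a log2 fold change of 0.22 (SE 0.06, adjusted p = 0.00707 by edgeR). The call was lost without IL-12 replicate 1 (adjusted p = 0.206) and with no filter (0.0646). Masp1, a lectin pathway protease, had 79.9 and 79.2 CPM in the control and 79.2 and 79.9 CPM in the IL-12 libraries. Its log2 fold change of 0.00 had a 95% interval of -0.10 to 0.10. The gene (6021 counts over the 4 libraries) overlaps Rtp4 (298 counts) and Gm45338 (201 counts) on the opposite strand, and without stated use of strand the reads of such pairs cannot be told apart.

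C4bp and Susd4 were lower with IL-12. C4bp, a cofactor for the breakdown of C4b, went from 17.7 and 17.4 CPM to 11.1 and 11.8 CPM. Among the pathway genes called this was the largest change, at -0.62 on the log2 scale (SE 0.10, adjusted p = 0.000158 by edgeR), and every alternative kept it. Susd4, a membrane regulator, had 26.3 and 27.3 CPM against 20.1 and 21.3 CPM, or -0.37 on the log2 scale (SE 0.08, adjusted p = 0.00207 by edgeR). Without IL-12 replicate 1 the adjusted p of Susd4 was 0.0564. The 5 pathway genes called were the regulators Cd59a, C4bp and Susd4, which were lower, and Cr1l and Clu, which were higher. They had 1096 to 5573 counts over the 4 libraries, and of the genes not called only Masp1 (6021) had more than 462. The part of count level in which genes were called was not tested. Cfp, which stabilizes the alternative enzyme, had a log2 fold change of -0.47 and an adjusted p of 0.0786 by edgeR. It was -0.13 (adjusted p = 0.764) without control replicate 1 and -0.75 (adjusted p = 0.00281, a call) without control replicate 2. C2, which overlaps Zbtb12 (1764 counts) on the opposite strand, had -0.25 and 0.349. Without control replicate 1 it was 0.06, and without control replicate 2 it was -0.50 (adjusted p = 0.0478, a call).

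**Figure D3:**
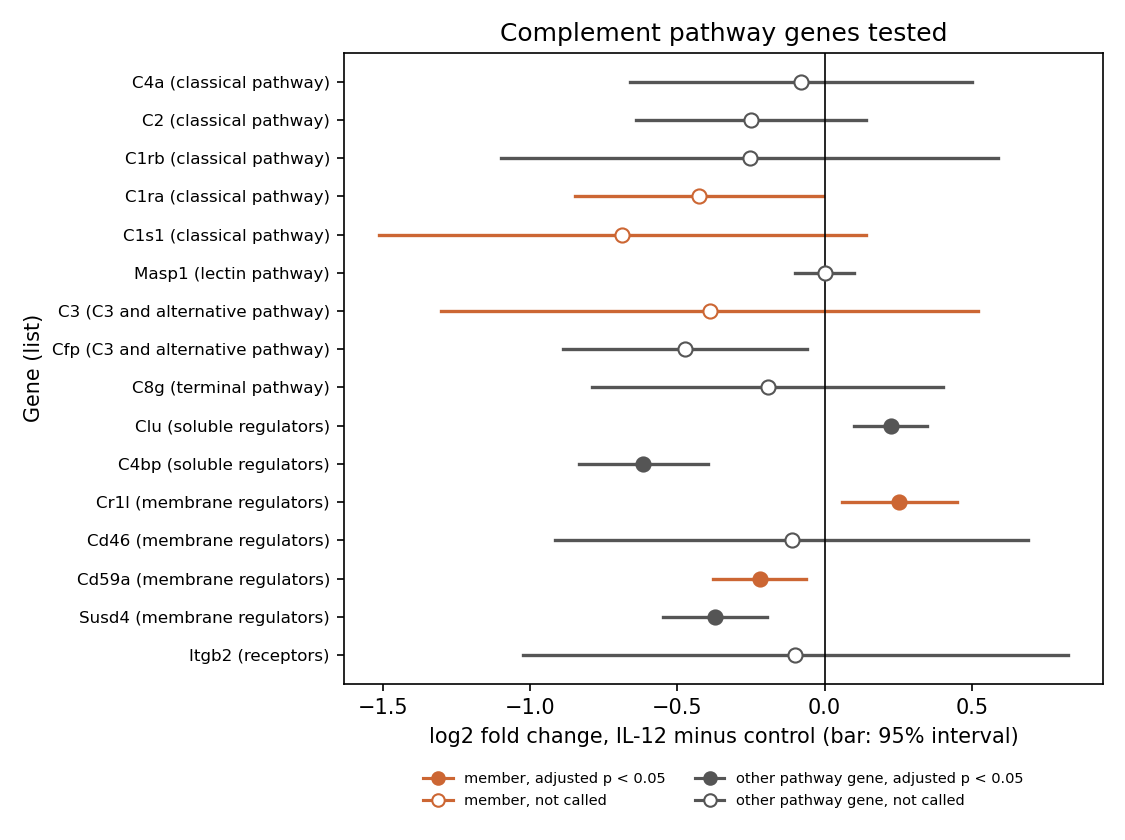
Log2 fold change (IL-12 minus control) with its 95% interval for the 16 complement pathway genes tested, the members in orange and the others in grey, filled where the adjusted p was below 0.05. The 5 filled points are Cd59a, C4bp and Susd4 below 0 and Cr1l and Clu above 0, and the widest intervals belong to genes of the lowest counts.

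**Figure D4:**
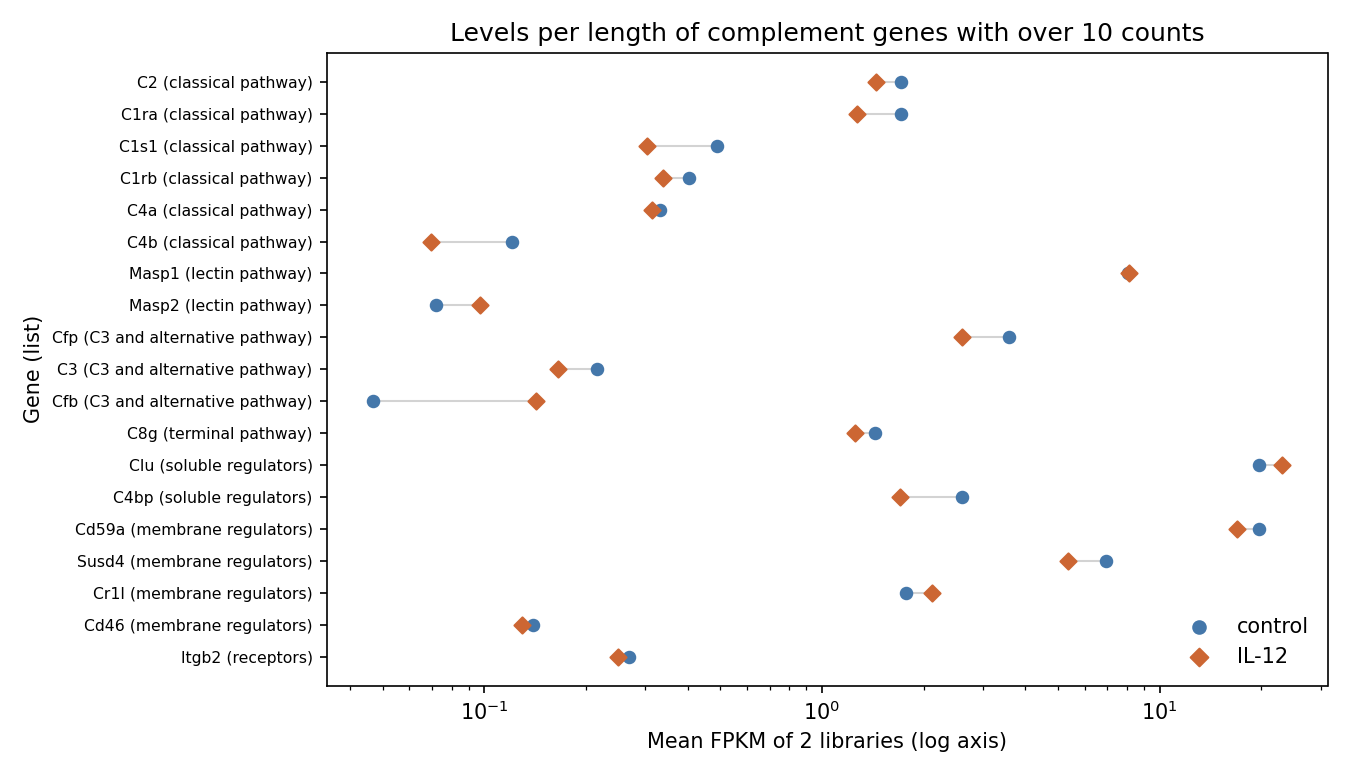
Mean FPKM of 2 libraries (log axis) in the control group (blue circles) and the IL-12 group (orange diamonds) for complement pathway genes with over 10 counts, arranged by list. Clu (19.7 and 23.1 FPKM) and Cd59a (19.8 and 17.0 FPKM) stand far above C3, C4b and Cfb.

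Transcription factors that carry cytokine signals were listed beside the members, since the liver and other cells raise C3, Cfb, C4 and Serping1 in response to interferon-γ and inflammatory cytokines. Of 16 factors, all tested, 4 were called higher, 5 lower and 7 not. The shares of all genes tested were 16.1% higher and 14.4% lower. The list was chosen with earlier results of these data known. Nfkb1, Nfkb2, Cebpd and Irf8 rose, with log2 fold changes of 0.18, 0.17, 0.24 and 0.46. Irf7, Stat2, Stat3, Foxo3 and Rela fell, with -1.04, -0.62, -0.42, -0.29 and -0.12. Irf7 alone passed 2-fold, from 4.75 and 4.72 CPM to 2.68 and 1.88 CPM (adjusted p = 0.0012 by edgeR). The calls of Rela, Irf8 and Cebpd were lost with the DESeq2 Wald test (adjusted p of 0.156, 0.163 and 0.163), with no filter, and in 4, 3 and 3 of the 4 fits that left out a library. Cebpd also lost its call with total counts only (0.0738) and Rela with the replicate block (0.0607). Nfkb2 lost its call without control replicate 2 (log2 fold change 0.12, adjusted p = 0.106) and without IL-12 replicate 1 (0.0774).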

How the data were processed

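The authors deposited raw counts per gene, whole numbers that were not normalized, and FPKM values for the same genes. Each FPKM equals the count over the listed gene length and the library total, times 1 factor per library (0.985 to 1.02, within 0.1%). The submitters' processing notes name HISAT2, StringTie and mm9, with no versions. The coordinates in the files equal GENCODE M21 (GRCm38) for 98.3% of 54495 shared genes and all 9 members, so they are given as GRCm38. The counting program, its use of strand and its handling of shared reads are not given in the sources used here.

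The count model was edgeR 4.0.16 in R 4.3.3 (filterByExpr with 10 counts and 15 in total, TMM, quasi-likelihood test, Benjamini-Hochberg), with limma 3.58.1 and DESeq2 1.42.0 as alternatives. CPM is relative to the counts on the genes tested, scaled by TMM. The standard error is the log2 fold change over the square root of F. A gene was called at an adjusted p below 0.05, and the study's 2-fold limit was a second criterion. The script was tested on simulated data with planted changes of at least 2-fold. That test does not cover changes as small as those of Cd59a and Cr1l. With 2 libraries a group, the smallest two-sided p of an exact permutation test is 0.333. Figures used Python 3.11.15 with matplotlib 3.10.9. The members, the gene lists and the tests were chosen with earlier results of these data known. The text names the members, their copies, pathway genes that passed the filter and called transcription factors, and other genes as markers, at 0 counts or where they overlap a named gene.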

Additional observations from a re-analysis of the deposited data

How the results depend on the processing

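Of 14 alternatives, 10 kept the call of Cd59a and 5 that of Cr1l, and each kept its direction in all 14. The alternative with copies summed left the counts of Cr1l unchanged. With the replicate number as a block, 1 member was called higher and 1 lower, the log2 fold changes were -0.22 for Cd59a and 0.25 for Cr1l, and neither changed call. Nothing states whether equal replicate numbers pair the libraries. The correlation of deviations between them (-0.027 across genes) cannot settle this with 2 libraries a group. The block added Cfp to the calls (-0.46) and removed Rela.

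The members called higher were 0 with total counts only, upper-quartile scaling, the DESeq2 Wald test, no filter and at least 10 counts in every library, where the log2 fold change of Cr1l was 0.21, 0.24, 0.25, 0.25 and 0.25. The members called lower were 0 with the DESeq2 Wald test and no filter, with -0.22 for Cd59a in both. Pathway genes called higher were 1, 1, 1, 0 and 1 in the same order. The cause of these losses was not tested. Masp1, near 0, was -0.00084 with DESeq2 size factors, -0.040 with total counts, -0.015 with upper quartiles, -0.00078 with the Wald test, -0.0010 with 10 counts in every library and -0.0019 with protein-coding genes alone.

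With 1 library left out, the lone library being assumed to vary like the other group, 0 members were called higher and 0 to 1 lower, and 0 to 1 pathway genes higher and 1 to 4 lower, where Cfp and C2 were called without control replicate 2. The log2 fold changes ranged from 0.17 to 0.34 for Cr1l, -0.31 to -0.13 for Cd59a, -0.85 to 0.30 for C3, -1.11 to -0.08 for C1s1 and -0.72 to -0.20 for C1ra. They ranged from -0.75 to -0.13 for Cfp, -0.50 to 0.062 for C2, -0.22 to 0.043 for C4a, -0.37 to 0.015 for C8g, -0.30 to 0.065 for Cd46, -0.39 to 0.27 for Itgb2 and -0.0060 to 0.0096 for Masp1. Depth limits the low members: 4 of 9 did not pass the filter.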
